A study of Mus musculus with 24 samples.

Results

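The let-7 and miR-98 family was measured on miRNA arrays of mouse liver and serum. Its 9 members on the arrays are mmu-let-7a-5p, mmu-let-7b-5p, mmu-let-7c-5p, mmu-let-7d-5p, mmu-let-7e-5p, mmu-let-7f-5p, mmu-let-7g-5p, mmu-let-7i-5p and mmu-miR-98-5p, written below without the species prefix. They were taken by name and are 9 of the 1881 mouse miRNAs on the array, with 18 of its 4415 probes (2 probes for each member). The 24 arrays cover 2 tissues, 2 diets and 3 feeding times, with 2 arrays in each of the 12 groups. All mice were C57BL/6NJcl males bought at 5 weeks of age and acclimatized for 1 week. The NASH model group (NASH is non-alcoholic steatohepatitis) then ate a choline-deficient high-fat diet, named CDAHFD, that held 0.1% methionine, and the control group ate the solid chow CE-2. Feeding lasted 1, 2 or 6 weeks, up to an age of 7, 8 or 12 weeks, and was followed by sampling of the liver and of serum from heart blood. The labels leave unsaid if a group's arrays stand for separate mice or for pools. The p-values therefore measure only how far arrays of a group spread, and that spread may be technical.

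The let-7 miRNAs are among the oldest known miRNAs in animals and rise as cells leave the embryonic state. They repress growth genes such as Ras, Myc, Hmga2 and Lin28, and the Lin28 proteins in turn block the processing of let-7 precursors. The members share a seed, the bases that pair first with a target, and so are predicted to share most of their targets, which makes it of interest whether they move together in a tissue under a fatty diet.

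The mature sequences are given first because the members differ by so few bases that an array probe has to tell near-identical RNAs apart. They come from RefSeq (GRCm38.p6), which held an entry for all 9 members, and the seed, bases 2 to 8, is in capitals.
let-7a-5p: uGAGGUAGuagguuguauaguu
let-7b-5p: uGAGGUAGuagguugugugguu
let-7c-5p: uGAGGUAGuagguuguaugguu
let-7d-5p: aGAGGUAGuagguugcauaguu
let-7e-5p: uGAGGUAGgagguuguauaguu
let-7f-5p: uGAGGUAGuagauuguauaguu
let-7g-5p: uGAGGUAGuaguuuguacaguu
let-7i-5p: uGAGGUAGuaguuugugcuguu
miR-98-5p: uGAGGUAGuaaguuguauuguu

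All 9 are 22 bases long and carry the seed GAGGUAG, which 11 of the 1679 mature mouse miRNAs in the RefSeq table have. Counted from 1 at the 5′ end and with let-7a-5p as the reference, let-7c-5p differs only by A19G, let-7e-5p only by U9G and let-7f-5p only by G12A. A pair of changes sets apart let-7b-5p (A17G and A19G), let-7d-5p (U1A and U16C), let-7g-5p (G12U and U18C) and miR-98-5p (G11A and A19U). let-7i-5p is farthest from let-7a-5p, with G12U, A17G, U18C and A19U.

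The genes lie in several places in GRCm38.p6. The let-7a-1, let-7f-1 and let-7d genes form a cluster on the minus strand of chromosome 13, where the mature RNAs lie at chr13:48538239-48538260, chr13:48537889-48537910 and chr13:48536078-48536099. The let-7c-2 and let-7b genes lie within the span of the long noncoding RNA gene Lncppara, with mature RNAs at chr15:85706616-85706637 and chr15:85707325-85707346 (plus strand). The let-7c-1 gene lies beside miR-99a, at chr16:77599672-77599693. The let-7e gene lies at chr17:17830366-17830387 within the span of Spaca6, beside miR-99b and miR-125a. The let-7f-2 and miR-98 genes share the span of Huwe1, at chrX:151912353-151912374 and chrX:151913229-151913250. The let-7g gene lies alone in the span of Wdr82 (chr9:106178846-106178867), and let-7i lies outside any listed gene and with no other miRNA within 10000 bases (chr10:122985698-122985719, minus strand). Whether a gene span is exonic or intronic at these positions was not resolved here.

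Values below are the background-subtracted intensity of the brighter of a member's 2 probes, or its log2 after division by the array's 75th percentile, called the scaled signal. A probe's brightness depends on its own sequence, so no member's level is set against another's, and only differences between arrays are compared. Between 253 and 307 miRNAs were detected on a control liver array and between 337 and 379 on a NASH liver array, against 235 to 362 and 313 to 399 in serum. The scaling percentile was higher in NASH than in control liver as well, by its means of 9.42 and 8.99 on the log2 scale. In serum its means were 8.75 in NASH and 7.97 in control. In liver the 4 hepatocyte marker miRNAs of a fixed list were all detected. No member probe was saturated on any array.

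In liver every member was well above background on all 12 arrays, and with the diet the family split. Of the 9 members, 7 fell and 2 rose in NASH liver over the mean of the 3 weeks (limma, adjusted p below 0.05). Over all 388 miRNAs tested, 20.1% fell and 21.9% rose by the same test, 42.0% in all. Over only the 218 miRNAs detected on all 12 liver arrays, as every member was, 72 fell and 55 rose, 127 in all. The members that fell were let-7a-5p, let-7b-5p, let-7c-5p, let-7d-5p, let-7f-5p, let-7g-5p and miR-98-5p, and those that rose were let-7e-5p and let-7i-5p. On 4 of the 9 members (let-7a-5p, let-7b-5p, let-7f-5p and let-7g-5p) the 6 NASH arrays all lay below the 6 control arrays, and arrays of the diets did not overlap for 21.4% of all miRNAs tested (10.6% with NASH lower). The median difference was -0.23 (log2) over the members, 0 over all miRNAs tested and -0.06 over the 218 detected on all liver arrays. In bulk tissue, fewer cells of a type and less RNA per cell cannot be told apart.

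**Figure D1:**
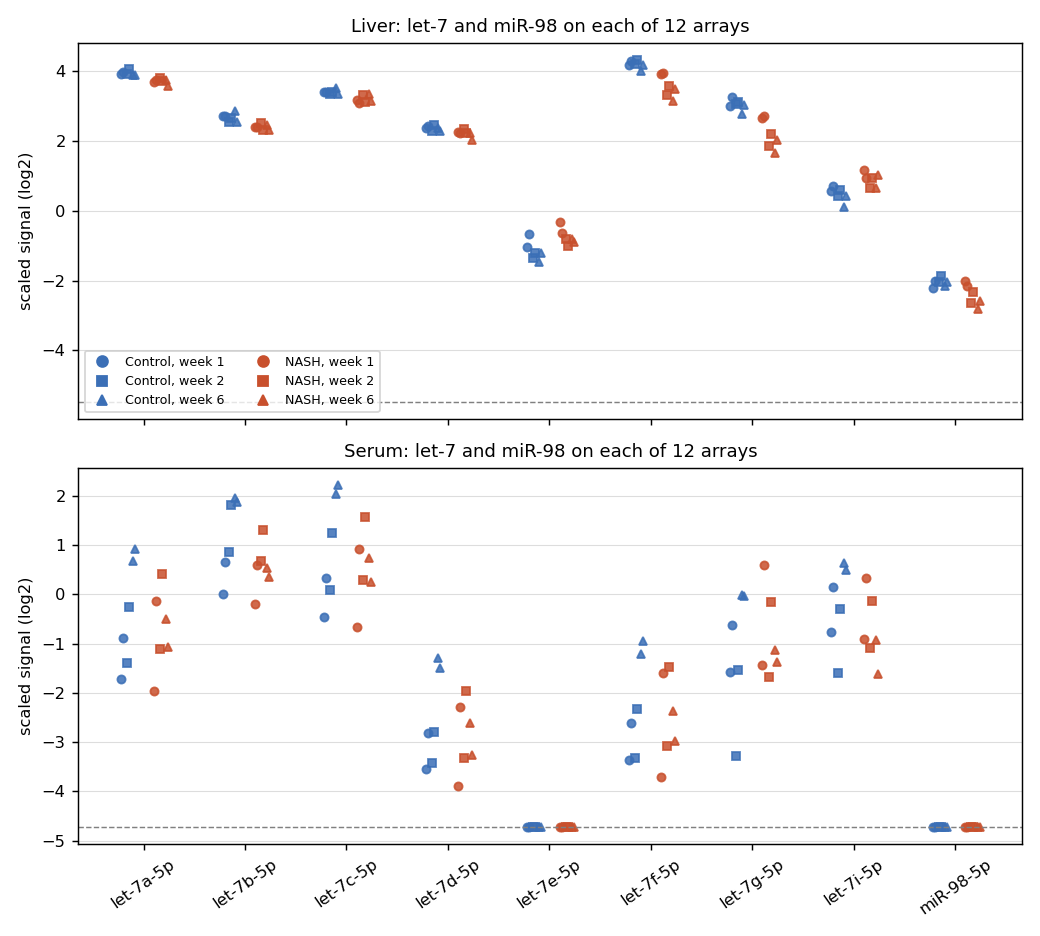
The scaled signal (log2) of each member on each of 12 liver arrays (top) and 12 serum arrays (bottom), coloured by diet and shaped by week, with the floor as a dashed line. In liver the let-7f-5p and let-7g-5p arrays of NASH mice lie below all control arrays (quantile normalization instead put let-7f-5p at 0.022) and those of let-7e-5p and let-7i-5p tend higher, while serum arrays of a group spread widely and let-7e-5p and miR-98-5p lie at the floor.

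let-7g-5p changed most among the members. Its scaled signal was 2.78 at the lowest, 3.06 at the median and 3.26 at the highest of the 6 control arrays, and 1.67, 2.12 and 2.71 on the 6 NASH arrays. Every NASH array was thus below every control array. The difference was -0.85 (SE 0.10, log2, 0.554-fold, limma adjusted p = 0.000704), and it stayed below 0 under all 13 alternative ways of processing, though without scaling it no longer passed (-0.42, adjusted p = 0.271).

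let-7f-5p, whose 2 genes lie in clusters with other members, was the next most changed. Control arrays ran from 4.02 through a median of 4.19 to 4.34, and NASH arrays from 3.16 through 3.55 to 3.96. The groups again did not overlap. The difference was -0.63 (SE 0.08, 0.647-fold, limma adjusted p = 0.00104), but under quantile normalization it was 0.022. miR-98-5p, encoded next to let-7f-2, ran from -2.21 through -2.05 to -1.86 on control arrays and from -2.83 through -2.47 to -2.02 on NASH arrays, with overlap at week 1. Its difference was -0.37 (SE 0.08, 0.773-fold, adjusted p = 0.0112), and without scaling it was 0.058.

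The remaining members that fell changed little. let-7a-5p, best known as a repressor of Ras genes, fell by 0.23 (SE 0.04, limma adjusted p = 0.00386), let-7b-5p fell by 0.26 (SE 0.07, adjusted p = 0.0188), let-7c-5p fell by 0.21 (SE 0.06, adjusted p = 0.0238) and let-7d-5p fell by 0.14 (SE 0.05, adjusted p = 0.0448), with differences above 0 instead when arrays were not scaled (0.20, 0.16, 0.22 and 0.29) or were quantile normalized (0.46, 0.27, 0.34 and 0.37). Under the 13 alternatives let-7d-5p passed as lower in 3 and let-7c-5p in 8. let-7c-5p missed the threshold without the second array of week 1 control, week 1 NASH or week 2 NASH, and let-7d-5p without any of these, the first of week 1 NASH or the second of week 6 control or NASH. In unscaled intensity let-7a-5p ran from 5897 through a median of 7746 to 9566 on control arrays and from 7123 through 9098 to 11190 on NASH arrays. Unscaled, the NASH arrays were thus the brighter ones. The direction for these 4 members thus changed with how an array's overall brightness was removed, and the median of the 218 miRNAs detected on all liver arrays itself moved by -0.06 with scaling and by 0.30 without.

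The 2 members that rose were let-7e-5p and let-7i-5p. let-7e-5p is processed from a transcript shared with miR-99b and miR-125a. Its scaled signal ran from -1.47 through a median of -1.20 to -0.68 on control arrays and from -1.01 through -0.81 to -0.33 on NASH arrays. The ranges overlapped across weeks, yet all 6 NASH arrays were above the control mean of their week. The difference was 0.41 (SE 0.10, 1.33-fold, limma adjusted p = 0.0151). let-7i-5p, known as a repressor of the toll-like receptor gene Tlr4, ran from 0.12 through 0.50 to 0.70 on control arrays and from 0.65 through 0.94 to 1.18 on NASH arrays, also with a small overlap. Its difference was 0.42 (SE 0.10, 1.34-fold, adjusted p = 0.0161), and again 6 of 6 NASH arrays were above the control mean of their week.

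Both rises kept their direction under all 13 alternatives and passed under 11 (let-7e-5p) and 12 (let-7i-5p) of them. With the percentile taken over all probes neither passed (adjusted p = 0.25 and 0.238). let-7i-5p also missed the threshold without the first control array of week 1 (0.38, adjusted p = 0.0545).

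The 2 probes of each member moved alike in liver. The second, dimmer probe gave -0.84 for let-7g-5p, -0.76 for let-7f-5p and -0.33 for miR-98-5p. It gave 0.44 for let-7e-5p and 0.49 for let-7i-5p. For the other 4 members it lay between -0.25 (let-7b-5p) and -0.13 (let-7d-5p), so that both probes had the same sign for 9 of 9 members.

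The liver difference was also taken at each week alone. At week 1 no member passed (limma, 11.6% of all miRNAs did), while at an unadjusted p below 0.05 4 were lower and 0 higher. Up to 2 members fell at week 1 in 2 of the 13 alternatives, and 0 to 2 when an array was left out. At week 2, 3 members fell, let-7f-5p by 0.82, let-7g-5p by 1.05 and miR-98-5p by 0.54 (12.1% of all miRNAs fell and 30.2% changed). At week 6 let-7f-5p, let-7g-5p and miR-98-5p fell by 0.77, 1.07 and 0.61, together with let-7a-5p by 0.23 (16.0% of all fell and 28.4% changed). Without scaling, or with the percentile over all probes, 0 members passed at either week, and with median centring 7 fell at week 2. Under quantile normalization let-7f-5p stood at 0.00 and let-7a-5p at 0.58 at week 6. The week 6 call of let-7a-5p held under 1 of the 13 alternatives. Without the first control array of week 6, the count at week 6 was 2.

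For let-7g-5p the arrays behind these values were 3.06 and 3.11 (control) against 1.86 and 2.22 (NASH) at week 2, and 2.78 and 3.05 against 1.67 and 2.02 at week 6. At week 1 they stood closer, at 3.01 and 3.26 against 2.67 and 2.71. let-7f-5p went from -0.30 at week 1 to -0.82 at week 2, and miR-98-5p from 0.03 to -0.54. None of the members passed the test of a diet difference that varied between weeks (limma F test, lowest adjusted p = 0.23, 3.09% of all miRNAs passed), and 1, miR-98-5p, had an unadjusted p below 0.05. Liver week 1 was hybridized on another slide than weeks 2 and 6, and its week cannot be told apart from its slide. Weeks 2 and 6 shared a slide, and between them no member's diet difference passed a test of change (limma, lowest adjusted p = 0.656, none below 0.05 unadjusted, 1.03% of all passed).

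let-7e-5p and let-7i-5p passed in no single week with the settings used here, but let-7i-5p passed as higher at week 6 under 9 of 13 alternatives (lowest adjusted p = 0.00671). let-7e-5p was higher by 0.39, 0.36 and 0.49 at weeks 1, 2 and 6, and let-7i-5p by 0.42, 0.27 and 0.57 (lowest limma adjusted p = 0.0818 and 0.0531, both at week 6). At week 6 both had an unadjusted p below 0.05.

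**Figure D2:**
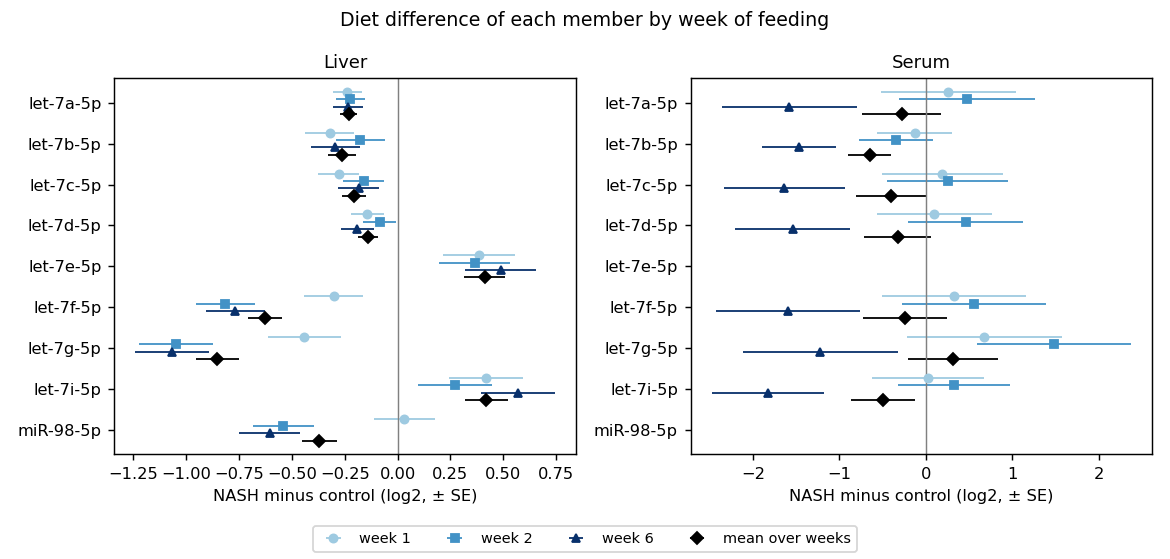
NASH minus control for each member (log2, with the SE of the limma fit as bars) at each week and over the mean of the weeks, in liver (left) and serum (right). In liver let-7g-5p, let-7f-5p and miR-98-5p lie farther below 0 at weeks 2 and 6 than at week 1 (let-7f-5p is 0.00 at week 6 under quantile normalization) and let-7e-5p and let-7i-5p lie above 0 at each week, while in serum all 7 members tested lie below 0 at week 6 alone.

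Setting members against each other on the same array removes the array's brightness, and with it any scaling that divides an array by a single number. Quantile normalization is not of that kind, and these within-array values were not run under it. let-7e-5p minus the mean of the other 7 members (without let-7i-5p) ran from -3.94 through -3.73 to -3.26 on control liver arrays and from -3.14 through -2.90 to -2.63 on NASH liver arrays. let-7i-5p minus the same 7 ran from -2.35 through -2.02 to -1.88 on control arrays and from -1.43 through -1.25 to -0.99 on NASH arrays. For both, every NASH array was above every control array. The sign of these levels reflects probe brightness, and only their change can be read.

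The change was 0.80 for let-7e-5p (1.74-fold) and 0.81 for let-7i-5p (1.75-fold). By week it was 0.63, 0.80 and 0.97 for let-7e-5p and 0.66, 0.71 and 1.05 for let-7i-5p. With each array left out in turn it stayed between 0.75 and 0.84 for let-7e-5p and between 0.75 and 0.86 for let-7i-5p. Such a separation was common: against the same 7 members, 189 of the 381 other miRNAs tested (49.6%) had all NASH arrays above all control arrays. let-7e-5p and let-7i-5p themselves held their ratio, with a change between them of -0.01 and r = 0.83 over the 12 liver arrays.

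**Figure D3:**
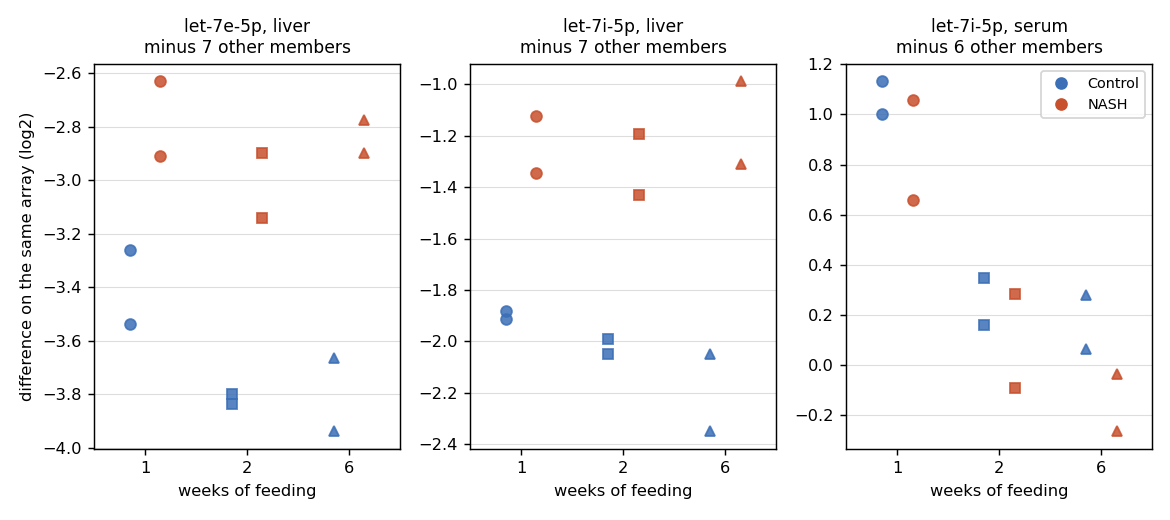
let-7e-5p and let-7i-5p minus the mean of the other members on the same array (log2), by weeks of feeding and coloured by diet, with 1 point per array. In liver all 6 NASH arrays lie above all 6 control arrays for both, and in serum the let-7i-5p arrays of the diets overlap and both diets are highest at week 1.

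Within the family the liver arrays thus showed 3 kinds of course. let-7f-5p, let-7g-5p and miR-98-5p followed each other closely over the 12 liver arrays, with r = 0.996 for let-7f-5p and let-7g-5p, 0.94 for let-7f-5p and miR-98-5p and 0.93 for let-7g-5p and miR-98-5p. let-7a-5p to let-7d-5p had the smallest diet differences, from -0.26 to -0.14, with their sign open to scaling as above. let-7e-5p and let-7i-5p ran the other way on the scaled values, with r = -0.51 and -0.68 against let-7a-5p. These correlations are descriptions, since the points share arrays, scaling and diet. Members with genes in 1 cluster did not all run alike: let-7a-5p, let-7d-5p and let-7f-5p share the one on chromosome 13, and the let-7a-5p to let-7f-5p difference on an array was 0.40 larger in NASH than in control liver. let-7f-5p also comes from let-7f-2 on chromosome X, and a probe cannot tell its genes apart. The output of the chromosome 13 cluster alone was thus not measured.

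The liver diet differences of a pair were set beside the number of bases between its members. Over the 36 pairs, the median size of the change in their liver difference with diet was 0.23 for the 4 pairs that differ by 1 base, 0.32 for the 10 pairs that differ by 2 bases and 0.55 for the 11 that differ by 3. It was 0.63 for the 9 pairs with 4 bases between them, 0.0076 for the 1 pair with 5 (let-7e-5p and let-7i-5p) and 0.56 for the 1 pair with 6, so it did not grow throughout. let-7a-5p and let-7e-5p, with U9G between them, differed by 0.64 in their liver diet difference, against 0.02 for let-7a-5p and let-7c-5p (A19G). How much of a probe's signal comes from a neighbour in sequence was not tested.

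The log2 difference between tissues, scaled over all 24 arrays, was larger in size than the liver diet difference above, scaled within liver, for 9 of 9 members. These scalings differ, and on the 24-array scaling this did not hold for let-7i-5p. There its liver mean was -0.97 in control and -0.20 in NASH mice, a larger change than its tissue difference of 0.55. In a fit of all 24 arrays, scaled by the 163 probes well above background on every array, 9 of 9 members were higher in liver than in serum relative to the miRNAs seen in both (limma, adjusted p below 0.05, under each of the alternatives run). Of all 521 miRNAs tested, 21.7% were higher in liver, 48.0% lower and 69.7% differed in all. Liver and serum were labelled from different amounts of RNA, 100 ng and 2.5 ng, so no absolute level is compared.

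let-7f-5p was 5.69 higher in liver (SE 0.25, log2, 51.6-fold, limma adjusted p = 1.25e-10). Its intensity ran from 5046 through a median of 8936 to 13120 on the 12 liver arrays and from 22.9 through 58.7 to 189.8 on the 12 serum arrays. let-7d-5p was higher by 4.41 (SE 0.21, 21.2-fold), let-7a-5p by 3.80 (SE 0.24, 14.0-fold), let-7g-5p by 3.02 (SE 0.26, 8.12-fold) and let-7c-5p by 1.98 (SE 0.22, 3.95-fold). For each of these 5 the arrays of the tissues did not overlap on the scaled values (30.9% of all miRNAs tested, 8.83% with liver higher).

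let-7b-5p and let-7i-5p differed least. let-7b-5p was 1.06 higher in liver (SE 0.15, 2.09-fold, limma adjusted p = 1.75e-05) and let-7i-5p 0.55 higher (SE 0.19, 1.46-fold, adjusted p = 0.0221), both with overlap of the tissues. In control mice alone let-7i-5p did not pass, at -0.09 (SE 0.27, adjusted p = 0.878), whereas in NASH mice it was 1.19 higher in liver (SE 0.27, adjusted p = 0.0019).

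let-7e-5p and miR-98-5p were hardly measurable in serum. let-7e-5p ran from 142 to 692 in intensity in liver and from 0.199 to 13.2 in serum, where it was well above background on 1 of 12 arrays, the second NASH array of week 1. On that array, at 13.2, it was brighter than on any other serum array. miR-98-5p ran from 79.9 to 215 in liver and from 0.706 to 11.1 in serum, and was well above background on none of 12. A bound takes the liver mean against, on each serum array, the lowest signal well above background or the probe's own if higher. By it miR-98-5p was at least 3.70-fold higher in liver (limma adjusted p = 5.86e-15), and in control mice let-7e-5p was at least 5.16-fold higher (adjusted p = 2.33e-14). These p-values rest on serum arrays at the floor, which show little spread.

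**Figure D4:**
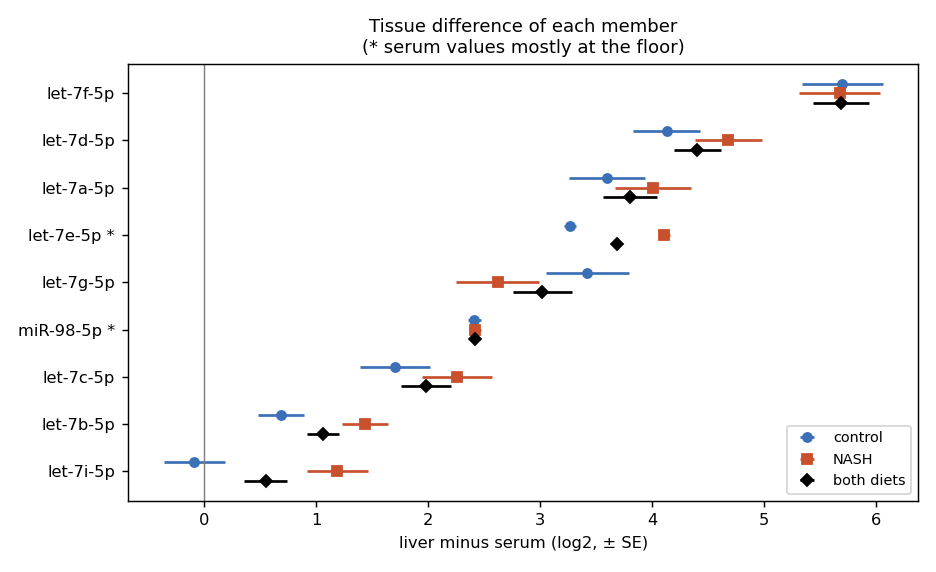
Liver minus serum for each member (log2, with the SE of the 24-array limma fit as bars) in control mice, in NASH mice and over both, in the order of the last. let-7f-5p stands highest at 5.69, let-7i-5p lowest at 0.55 and near 0 in control mice, and the starred members have serum values mostly at the floor.

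On the slide that held both tissues, the value for liver week 1 minus serum week 6 was 5.32 for let-7f-5p, 3.85 for let-7d-5p and 3.18 for let-7a-5p, each somewhat below the value over all arrays (60.8% of all miRNAs passed on that slide). It was 0.74 for let-7b-5p (limma adjusted p = 0.021) and 0.56 for let-7i-5p (adjusted p = 0.176).

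The tissue difference was not equal among the members. Among the 21 pairs with both members measured in serum, the difference within an array did not overlap between the 12 liver and 12 serum arrays for 16. Among all 8256 pairs of the 129 miRNAs detected on every array that share was 50.3%. Pairs that differ by 1 base were among them. let-7a-5p minus let-7c-5p, which differ by A19G, ran from 0.38 to 0.64 in liver and from -1.51 to -1.05 in serum. let-7a-5p minus let-7f-5p, with G12A, ran from -0.33 to 0.59 in liver and from 1.47 to 2.07 in serum. let-7b-5p minus let-7c-5p, with G17A, ran from -0.89 to -0.66 in liver and from -0.35 to 0.76 in serum. In each of these 3 pairs the ranges of the tissues did not overlap.

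In serum the diet left no call among the 7 members tested (limma, mean over weeks, lowest adjusted p = 0.14, against 18.8% of all 426 miRNAs tested), and 1, let-7b-5p, was lower at an unadjusted p below 0.05. Its difference was -0.65 (SE 0.25), and it passed in 2 of 13 alternatives and without the first control array of week 2 (adjusted p = 0.0496). The others ran from -0.49 (let-7i-5p) to 0.31 (let-7g-5p), with SEs from 0.37 to 0.52. Over only the 196 miRNAs detected on all serum arrays, 73 passed by the same test, 1 of them a member. Serum arrays of a group differed much more than liver arrays did: the SD of let-7a-5p over 6 control arrays was 1.09 in serum and 0.06 in liver, weeks included.

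Serum of week 6 was on another slide than serum of weeks 1 and 2, and its week cannot be told apart from its slide. There all 7 members were lower in NASH serum, by 1.22 (let-7g-5p) to 1.83 (let-7i-5p). None passed (limma, lowest adjusted p = 0.0736 for let-7b-5p, 12.0% of all miRNAs passed) and 2 had an unadjusted p below 0.05. All 7 stayed lower under the 13 alternatives, but the size varied, from -1.33 to -0.16 for let-7g-5p and from -2.10 to -0.77 for let-7i-5p. The scaling percentile of that week was 7.39 and 7.57 on control and 8.40 and 8.67 on NASH arrays (log2). In unscaled intensity let-7g-5p was 167 and 185 in control against 155 and 158 in NASH serum. That none passed turned with the miRNAs tested and the background correction: 6 of the 7 fell at week 6 over only the miRNAs detected on all serum arrays, with the same differences, and 6 fell under normexp correction. let-7i-5p was 0.64 and 0.48 on the control arrays and -0.93 and -1.61 on the NASH arrays of that week. let-7b-5p was 1.95 and 1.87 against 0.52 and 0.36. At weeks 1 and 2 the diets overlapped for both.

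At weeks 1 and 2 the members' serum differences ran from -0.13 to 0.68 and from -0.35 to 1.48, none passing (1.41% and 2.58% of all miRNAs passed) and none below 0.05 unadjusted. None of the 7 passed the test of a diet difference that varied between weeks (limma F test, lowest adjusted p = 0.737, 0.469% of all passed, none below 0.05 unadjusted).

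Signs of red cell RNA also differed between the serum arrays. The haemolysis index, log2 of miR-451a minus log2 of miR-23a-3p, lay between 2.23 and 2.50 on the control and between -0.25 and -0.11 on the NASH serum arrays of week 6, the only week where NASH was the lower group. Of 5 red cell miRNAs fixed in a list, 3 of the 4 tested fell in NASH serum over the mean of the weeks and miR-144-5p was detected on no array. The log2 of their summed scaled signal ran from 4.95 to 6.07 on control and from 3.05 to 6.17 on NASH arrays. Their part in the members' serum values was not tested.

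Within serum, let-7i-5p minus the mean of the other 6 members showed no separation by diet (-0.23, control 0.06 to 1.13, NASH -0.27 to 1.06). It was higher at week 1, at 1.00 and 1.13 in control and 1.06 and 0.66 in NASH mice, than at week 2, at 0.16 and 0.35 and at 0.28 and -0.09, on the same slide. In the fit itself no member changed in control serum from week 1 to week 2 (limma, lowest adjusted p = 0.48, 1.17% of all passed, none below 0.05 unadjusted), with values from -1.30 for let-7g-5p to 1.01 for let-7b-5p.

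The diet difference of serum minus that of liver was tested in the 24-array fit. Of the 7 members, 2 passed, both lower in serum (limma, 39.2% of the 293 miRNAs tested were lower and 46.4% differed in all). let-7i-5p stood at -1.28 (SE 0.38, adjusted p = 0.0139) and let-7b-5p at -0.75 (SE 0.29, adjusted p = 0.0448). let-7i-5p kept its sign under all 14 alternatives and passed under 8 and with each of the 24 arrays left out in turn. let-7b-5p passed under 6 and in 9 of 24 of those repeats, and it turned to 0.27 with the percentile over all probes and to 0.22 with median centring. On the scaling of this fit the liver mean of let-7b-5p was 1.24 in control and 1.31 in NASH mice, so it did not fall. That of let-7i-5p was -0.97 and -0.20. Liver means also rose for let-7a-5p (2.51 to 2.62), let-7d-5p (0.93 to 1.13) and let-7c-5p (1.97 to 2.11). They fell for let-7f-5p (2.76 to 2.48) and let-7g-5p (1.60 to 1.09). The part of the scaling in these values was not tested.

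Passenger arms are the opposite strand of the precursor hairpin and are usually degraded. Of 12 fixed ones, 11 were on the array and 1 was an exception to low signal. let-7d-3p, from the same hairpin as let-7d-5p, was well above background on 12 of 12 serum arrays and on 0 of 12 liver arrays. Its mature sequence, with bases 2 to 8 in capitals, is shown because it shares no seed with the members.
let-7d-3p: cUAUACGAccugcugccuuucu

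Its intensity ran from 53.9 through a median of 143 to 284 in serum and from 5.44 through 6.64 to 9.20 in liver. It was at least 30.4-fold higher in serum than in liver (limma adjusted p = 1.3e-10). let-7d-5p, the other arm, went the opposite way, from 20.8 through 49.0 to 119 in serum and from 2033 through 3041 to 4196 in liver. On the slide with both tissues the bound for let-7d-3p was 40.9-fold. In serum its diet difference was 0.16 (SE 0.40, adjusted p = 0.885). The other 10 arms were well above background on at most 1 of 12 arrays of a tissue, and 0 of the 4 arms tested in liver and 0 of 3 in serum passed for the diet (limma, none at an unadjusted p below 0.05).

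The related miRNAs let-7j and miR-202-3p share a changed seed, GAGGUAU, and are shown because each was seen in a single tissue.
let-7j: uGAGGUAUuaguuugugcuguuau
miR-202-3p: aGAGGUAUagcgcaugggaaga

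let-7j differs from let-7i-5p by G8U within the first 22 bases and is 2 bases longer. It was well above background on 7 of 12 serum arrays (6.45 through 13.7 to 18.8 in intensity) and on 0 of 12 liver arrays (0.705 through 1.99 to 3.33). By the calculation of the bound above, with the tissues exchanged, it was 2.87-fold higher in serum. Serum values below the floor were raised to it, so this is not a strict lower limit. On the floored values liver minus serum was -0.59 (limma adjusted p = 0.0037), while let-7i-5p was 0.55 higher in liver. miR-202-3p, best known from gonads, was well above background on 12 of 12 liver arrays (51.8 through 82.4 to 93.0) and on 0 of 12 serum arrays (at most 6.96), at least 2.34-fold higher in liver (limma adjusted p = 4.51e-11). Neither passed for the diet where tested, at -0.19 (SE 0.10, adjusted p = 0.171) for miR-202-3p in liver and -0.29 (SE 0.25, adjusted p = 0.539) for let-7j in serum. let-7k was detected on no array.

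**Figure D5:**
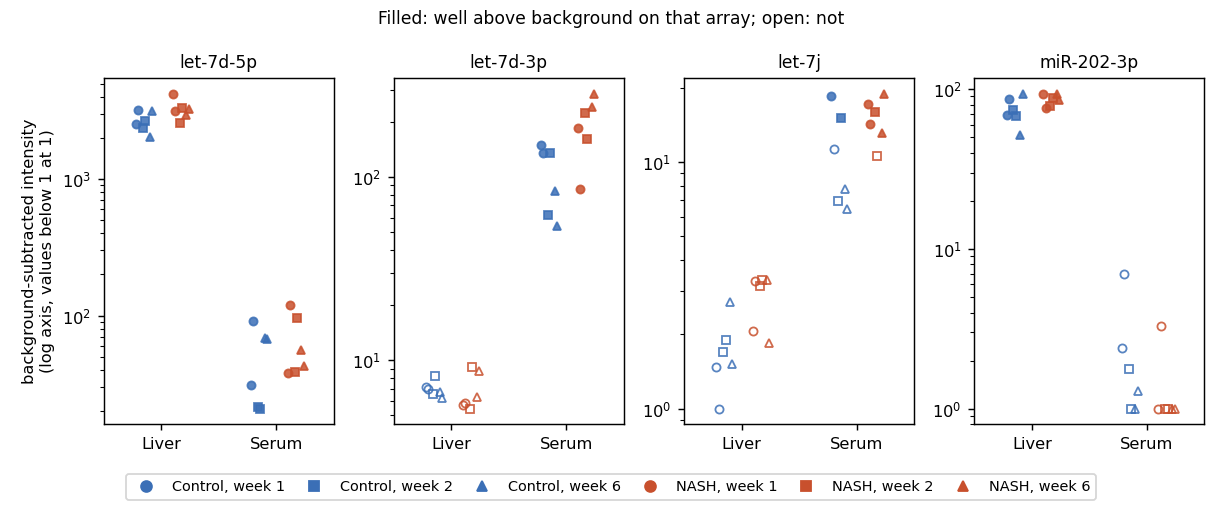
Background-subtracted intensity (log axis, values below 1 drawn at 1) of let-7d-5p, let-7d-3p, let-7j and miR-202-3p on each array, by tissue, diet and week, with filled points where the probe was well above background. The arms of let-7d run opposite ways between tissues, let-7j is filled in serum alone and miR-202-3p in liver alone.

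Of 10 fixed partners from the miR-99, miR-100 and miR-125 families, which are encoded beside let-7 genes, 6 were tested in liver. There 3 rose with the diet, 0 fell and 3 did not pass (limma). Of all miRNAs tested in liver 21.9% rose and 42.0% changed. All 3 that rose are encoded beside let-7e: miR-99b-5p by 0.74 (SE 0.09, 1.67-fold, adjusted p = 0.000845), miR-125a-5p by 0.64 (SE 0.09, 1.56-fold, adjusted p = 0.0018), and miR-125a-3p, at least 1.25-fold (adjusted p = 0.00013), which was well above background on all 6 NASH and no control arrays and which under normexp correction stood at -0.084. Under normexp correction miR-99b-5p was at 0.086 and miR-125a-5p at 0.17, and neither passed. miR-99b-5p ran from 20.8 through 30.0 to 44.1 in intensity on control and from 53.1 through 71.3 to 81.3 on NASH arrays. The groups did not overlap, scaled or unscaled, for miR-99b-5p. let-7e-5p rose with them, by 0.41. miR-99a-5p, encoded beside let-7c-1, stood at -0.06 (SE 0.08), miR-125b-5p at 0.03 (SE 0.06) and miR-100-5p at -0.17 (SE 0.07).

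In serum 5 of these partners were tested and 1, miR-125b-5p, fell, by 1.06 (SE 0.29, limma adjusted p = 0.0468), where 18.8% of all miRNAs changed. This call was lost in 11 of the 12 repeats that each left out an array and kept only without the first control array of week 2. The others ran from -0.89 (miR-100-5p) to -0.09 (miR-125a-3p). miR-99b-5p, like let-7e-5p beside it, was near background in serum, well above it on 0 of 12 arrays.

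Outside the family, the miRNAs most like the mean of the 9 members over the 12 liver arrays were miR-30a-5p (r = 0.96), miR-30e-5p (0.94) and miR-126a-3p (0.94), of 209 detected on all of them. Most like let-7i-5p were miR-350-3p (0.94), miR-18a-5p (0.91) and miR-223-3p (0.87). Over the 12 serum arrays miR-30c-5p (0.83), miR-99a-5p (0.79) and miR-125a-5p (0.78) were most like the mean of 7 members, and miR-15a-5p (0.88), miR-99a-5p (0.85) and miR-126a-3p (0.85) most like let-7i-5p, of 188. The points share arrays and scaling, and these are descriptions.

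Markers of cell types also changed with the diet, beside 42.0% of all miRNAs tested in liver and 18.8% in serum. All 4 hepatocyte miRNAs fell in NASH liver, the log2 of their summed scaled signal going from between 7.30 and 7.50 to between 5.99 and 6.91. Of 6 immune cell miRNAs 4 rose (from 0.12 to 0.62 in control to 1.50 to 2.09 in NASH). Of 5 stellate cell and fibroblast miRNAs 2 rose (-0.44 to -0.02 against 0.07 to 0.75). Both endothelial miRNAs fell (2.56 to 2.93 against 1.59 to 2.82), and 3 of 4 tested red cell miRNAs fell (1.91 to 2.75 against 0.28 to 2.11), with miR-486a-3p detected on no array. Their part in the members' liver values was not tested. In serum 3 of 4 hepatocyte miRNAs rose (-0.33 to 2.03 against 4.21 to 4.97), while no member did. Of the immune cell miRNAs 1 rose and 3 fell there (2.49 to 3.62 against 2.52 to 4.38), 2 of 5 stellate cell and fibroblast miRNAs fell (-0.29 to 0.59 against -2.30 to -0.62), and neither endothelial miRNA passed (-0.88 to 1.26 against -2.31 to 0.0095).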

How the data were processed

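Per the file headers, the deposited values are spot intensities, made, as the submitters' processing notes name it, with Agilent Feature Extraction 11.5. The processed signal used is background-subtracted and not normalized between arrays. Flagged spots were dropped, spots of a probe averaged, and each array divided by its 75th percentile over the probes that every array of the tissue held well above background (299 in liver, 253 in serum, 163 for both). Low values were set to a floor (for each array the 5th percentile of its scaled values well above background, then the median of the arrays) and log2 taken. A miRNA was its brightest probe, tested if detected on at least 2 arrays. Of the 388 miRNAs tested in liver 54, and of the 426 in serum 51, lay at the floor on every array. They could not pass for the diet, and the shares given over all miRNAs tested include them. limma (3.58.1, R 4.3.3; lmFit, eBayes) modelled the 6 groups of a tissue, or all 12, with Benjamini-Hochberg adjustment. On simulated data it recovered 76.7% of differences of 0.5 and 93.3% of 1 in liver (218 miRNAs), and 36.7% and 86.7% in serum (196 miRNAs). The simulation used only miRNAs detected on all arrays of a tissue, with independent noise and the same difference at each week. It had no scaling step, so these rates do not cover deviations shared by the miRNAs of an array. Named are the 9 members, detected passenger arms, relatives and cluster partners, the 3 most alike by correlation, and marker lists. The members and lists were chosen with earlier results of these data known. Control arrays lay in other slide columns than NASH arrays, so diet and column cannot be told apart. The number of arrays limits the precision. Alternatives changed signal, background correction, scaling, probe summary, filter, floor, variance estimate and blocking, or dropped an array.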

Additional observations from a re-analysis of the deposited data

Results flagged for a closer look

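In 2 members the diet difference in serum differed from that in liver by its own test (limma over 24 arrays, adjusted p below 0.05). let-7i-5p stood at -1.28 (SE 0.38, adjusted p = 0.0139) and let-7b-5p at -0.75 (SE 0.29, adjusted p = 0.0448), serum minus liver. Among the cluster partners, miR-99a-5p stood at -1.07 (adjusted p = 0.00552), miR-100-5p at -1.18 (adjusted p = 0.00418), miR-125a-5p at -1.74 (adjusted p = 0.000674) and miR-125b-5p at -1.45 (adjusted p = 0.00127). Of all 293 miRNAs tested 39.2% were lower in serum by this test. Over the miRNAs detected on all arrays of a tissue, the median diet shift was -0.28 in serum and -0.06 in liver. Those medians come from the fits of each tissue alone, whose scaling differs from that of the 24-array fit. On the 24-array scaling the liver mean of let-7b-5p was 1.24 in control and 1.31 in NASH mice, whereas it fell on the liver scaling. The part of these shifts and of the scaling in the common direction was not tested.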

How the results depend on the processing

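The 9 tissue differences kept their direction and their side of the threshold under all alternatives run, as did the 0 members whose diet difference varied between weeks. Of the single-miRNA results, 1288 stayed the same over the alternatives other than leaving out an array, 70 no longer passed, 77 came to pass and 23 turned. The number of members that rose in liver (2) became 0 with the percentile over all probes, 4 under quantile normalization and 1 with the replicate block, where let-7e-5p missed the threshold (adjusted p = 0.0897). let-7d-5p kept its fall in 3 of 13 alternatives. The number that fell (7) became 4 under normexp correction, 1 with the percentile over all probes, 0 without scaling and 2 under quantile normalization. In serum the number that fell (0) became 2 under normexp and 1 over only the miRNAs detected on all arrays. In the test of serum minus liver the number lower (2) became 0 with the total signal, the percentile over all probes, no scaling, median centring and the percentile within each tissue, and 1 under quantile normalization, the slide row block and the replicate block. The number higher (0) became 1 with the percentile over all probes and 2 with median centring.

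Without scaling the liver differences turned to 0.20 (let-7a-5p; 0.25 at week 6), 0.16 (let-7b-5p), 0.22 (let-7c-5p), 0.29 (let-7d-5p) and 0.058 (miR-98-5p). Under quantile normalization they turned to 0.46 for let-7a-5p (0.52 at week 2 and 0.58 at week 6), 0.27 for let-7b-5p, 0.34 for let-7c-5p (0.69 at week 6), 0.37 for let-7d-5p (0.51 at week 2 and 0.53 at week 6) and 0.022 for let-7f-5p (0.00 at week 6). The serum minus liver value of let-7b-5p turned to 0.27 with the percentile over all probes and to 0.22 with median centring. miR-125a-3p turned to -0.084 in liver under normexp and to 0.43 in serum with median centring. Without a floor let-7d-3p and let-7a-1-3p, at the floor in liver otherwise, stood at -0.47 and -0.56. The cause of these turns was not tested.

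Leaving out each array in turn gave 1 to 2 members that rose and 5 to 7 that fell in liver, 0 to 1 that fell in serum, and, for serum minus liver, 1 to 2 lower and 0 to 1 higher. The single rise came without the first control array of week 1 in liver (let-7i-5p, adjusted p = 0.0545), and the serum fall without the first control array of week 2. In serum minus liver, let-7b-5p missed the threshold without each of 15 arrays: in serum the second control and first NASH of week 1, the first NASH of week 2, both control and the first NASH of week 6, and in liver all but the first control of week 1, the second NASH of week 2 and the first control of week 6. let-7a-5p at week 6 in liver missed it in 9 of 12 repeats, miR-98-5p at week 2 without the second control or first NASH array of week 2, and at week 6 without either control or the first NASH array of week 6.

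Replicate numbers are shared by the diets, but the deviations of same-numbered arrays correlated at -0.60, 0.42 and 0.49 in liver and 0.55, 0.14 and 0.18 in serum (weeks 1, 2 and 6), and 1 serum array of week 6 carries no number, which leaves fewer than 3 numbered weeks in serum, so arrays were not paired. With the replicate block the calls over all serum miRNAs dropped from 80 of 426 to 24 of 422, the background for the 0 members called there. Slide as a random block could not be fitted, since each tissue and week lies on 1 slide. Signal over background is a limit in serum for 2 members by their brighter probe: let-7e-5p was well above background on 1 and miR-98-5p on 0 of 12 serum arrays. The dimmer probe of let-7f-5p was so on 2 and that of let-7d-5p on 6 of 12.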
